A study of Mus musculus with 12 samples.

Results

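H3K4me3 peaks that lie inside protein-coding genes, away from the genes' ends, are the subject here. A peak counted as intragenic when its midpoint lay inside a protein-coding gene of the mm10 RefSeq gene table and more than 1 kb from the start and the far end of every protein-coding gene. Of the 5464 H3K4me3 peaks in the deposited list, 1486 met this rule (27.2%, exact Clopper-Pearson 95% interval 26.0 to 28.4). Another 3204 peaks (58.6%) lay within 1 kb of a gene end and 770 (14.1%) lay between genes, while 4 could not be placed. The rule used position and no measured value.

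The study applied chromatin immunoprecipitation and sequencing to mouse back skin under a 5 Gy ionizing radiation protocol, in mice of 8 to 10 weeks. The labels give 12 samples in 6 groups of 2: at each of T0 and 6 h, p53 was profiled in K17KO skin and in wild-type (WT) skin, and H3K4me3 in WT skin. The series text places the skin in anagen, the hair growth phase, and whole skin holds many cell types. The labels put radiation on every sample, T0 included, and do not spell out K17KO or say whether replicate samples are separate mice. Each of the 3 deposited lists (H3K4me3, K17KO p53 and a p53 list that names no genotype and was taken as WT) names no library, time or replicate, so no peak has a replicate error and T0 could not be set against 6 h.

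Trimethylation of lysine 4 on histone H3 is laid down by Set1 and MLL-type methyltransferases, many of which are brought to unmethylated CG-rich DNA by CXXC-domain proteins. The mark is densest on the nucleosomes just downstream of active transcription starts and falls off along the gene body. Many mammalian genes have more than 1 promoter, and an alternative promoter inside the gene carries the mark as well. Intragenic H3K4me3 is therefore commonly found at alternative starts, at the tail of a wide promoter domain, and at some strong enhancers.

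The label was checked against annotated transcription starts, which the rule did not use. RefSeq's table of start windows (GRCm38.p6, which has the coordinates of mm10) lists 32851 starts, several per gene in part, and it is not complete. Of the 1486 intragenic peaks, 496 (33.4%, 31.0 to 35.8) had a midpoint within 1 kb of a listed start. In 430 of these (28.9% of all members) the start belonged to a protein-coding gene that held the peak, and in 66 (4.44%) it belonged to a long noncoding RNA. The gene table takes a gene from its outermost start to its outermost end, predicted transcripts included. About 1 peak in 3 called intragenic by the rule was thus at another annotated start. A further 49 members lay on a chromosome with no start listed, and they count below as not at a start. Among between-gene peaks, 100 of 770 (13.0%, 10.7 to 15.6) were within 1 kb of a listed start.

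5 start windows show what such internal starts look like. Each runs from 250 bases before to 50 bases after an annotated start inside its gene, on the plus strand of GRCm38.p6, 5′ to 3′, from RefSeq. The Mxi1 window at chr19:53329445-53329744 is shown as a CG-rich start and the Rnase6 window at chr14:51128814-51129113 as a CG-poor one, with every CG in capitals. The Per1 window at chr11:69098699-69098998 and the Bbc3 window at chr7:16310181-16310480 have the E-box CACGTG in capitals, the element bound by the clock factors Clock and Bmal1 and by Myc. The Rps27l window at chr9:66946163-66946462 has its p53 half-sites in capitals.
Mxi1: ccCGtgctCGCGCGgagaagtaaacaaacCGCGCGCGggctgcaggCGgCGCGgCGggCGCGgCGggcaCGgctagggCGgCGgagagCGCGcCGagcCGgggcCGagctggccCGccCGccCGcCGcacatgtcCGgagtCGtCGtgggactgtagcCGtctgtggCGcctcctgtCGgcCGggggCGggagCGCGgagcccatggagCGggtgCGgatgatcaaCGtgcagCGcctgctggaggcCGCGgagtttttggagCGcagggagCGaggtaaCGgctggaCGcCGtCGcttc
Rnase6: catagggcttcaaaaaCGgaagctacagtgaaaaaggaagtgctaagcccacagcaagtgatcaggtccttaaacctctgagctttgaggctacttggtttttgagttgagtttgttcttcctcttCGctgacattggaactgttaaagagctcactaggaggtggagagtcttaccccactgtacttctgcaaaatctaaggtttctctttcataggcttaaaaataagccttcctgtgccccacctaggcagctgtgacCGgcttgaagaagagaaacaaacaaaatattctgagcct
Per1: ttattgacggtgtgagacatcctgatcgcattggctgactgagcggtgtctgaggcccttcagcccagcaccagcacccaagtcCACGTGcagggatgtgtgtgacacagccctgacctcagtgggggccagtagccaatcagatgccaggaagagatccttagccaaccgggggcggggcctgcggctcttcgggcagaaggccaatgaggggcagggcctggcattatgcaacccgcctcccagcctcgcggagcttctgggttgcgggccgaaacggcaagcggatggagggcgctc
Bbc3: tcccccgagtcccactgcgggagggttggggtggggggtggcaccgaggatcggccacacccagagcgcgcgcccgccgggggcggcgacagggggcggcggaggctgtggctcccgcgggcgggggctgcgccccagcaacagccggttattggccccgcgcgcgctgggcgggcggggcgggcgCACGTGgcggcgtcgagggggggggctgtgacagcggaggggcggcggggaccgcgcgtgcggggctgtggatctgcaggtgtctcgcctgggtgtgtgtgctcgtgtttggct
Rps27l: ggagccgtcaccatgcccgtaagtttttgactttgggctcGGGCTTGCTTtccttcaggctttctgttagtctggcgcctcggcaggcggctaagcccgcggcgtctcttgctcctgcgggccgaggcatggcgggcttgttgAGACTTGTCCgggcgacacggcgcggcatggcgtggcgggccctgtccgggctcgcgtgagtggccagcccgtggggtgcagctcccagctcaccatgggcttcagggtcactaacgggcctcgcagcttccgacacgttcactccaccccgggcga

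The Mxi1 window held 49 CG at 75% GC, and the peak 272 bp downstream of its start had 187 fragments over a background of 129 (1.45-fold). Mxi1 encodes an antagonist of Myc. The Rnase6 window held 3 CG at 44.3% GC, and its peak had 14 fragments over 1.87 (5.23-fold). Rnase6, a ribonuclease of innate defence, had the highest fold of the members at listed starts, and was chosen for this after the values were seen. The 2 genes stand at opposite corners of the list: many fragments at a low fold, and few fragments at a high fold.

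The fold of a peak is the authors' own value. It is the summit's fragments plus 1, divided by the caller's background plus 1, and both terms could be recovered from the deposited fold and p-value. Intragenic peaks had a median fold of 1.95 (quartiles 1.54 and 2.95), against 1.55 (1.42 and 1.76) at gene ends and 2.58 (1.92 and 3.76) between genes. Their median fragment number was 70.5, against 188 at gene ends and 34.5 between genes. The median background was 34.6 for intragenic peaks, 121.2 for gene-end peaks and 11.8 for between-gene peaks. Intragenic peaks thus lay between the other classes on all 3 measures.

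A fold at or above the median of the whole list (1.66) was found in 987 intragenic peaks (66.4%), against 1074 gene-end peaks (33.5%), a difference of 32.9 percentage points (29.95 to 35.8, Fisher's exact test, two-sided, adjusted p = 2.168e-98). Against the 669 between-gene peaks (86.9%) the difference was −20.5 points (−23.8 to −17.0, Fisher's exact adjusted p = 1.281e-26). With a limit of 5 kb that difference was −10.7 points and still passed. In the upper 50% by fold the cut was the higher median of those peaks alone. There the difference was −9.53 points and passed, but it is not the same measure. The unit is the peak, so these tests cover counting only. No listed peak had a −log10 p under 3.003, a value that a low background reaches only at a high fold. The tests therefore do not separate class from background. Background moved with the class. In peaks with a background of 10 or less the median fold was 3.62 for 448 intragenic, 3.53 for 110 gene-end and 3.80 for 352 between-gene peaks. Between 10 and 50 it was 2.13, 2.05 and 2.203 in the same order of classes, between 50 and 100 it was 1.67, 1.69 and 1.697, and above 100 it was 1.45, 1.47 and 1.45. At a like background the 3 classes had nearly the same fold. The sources used here do not say what the background sample was.

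**Figure D1:**
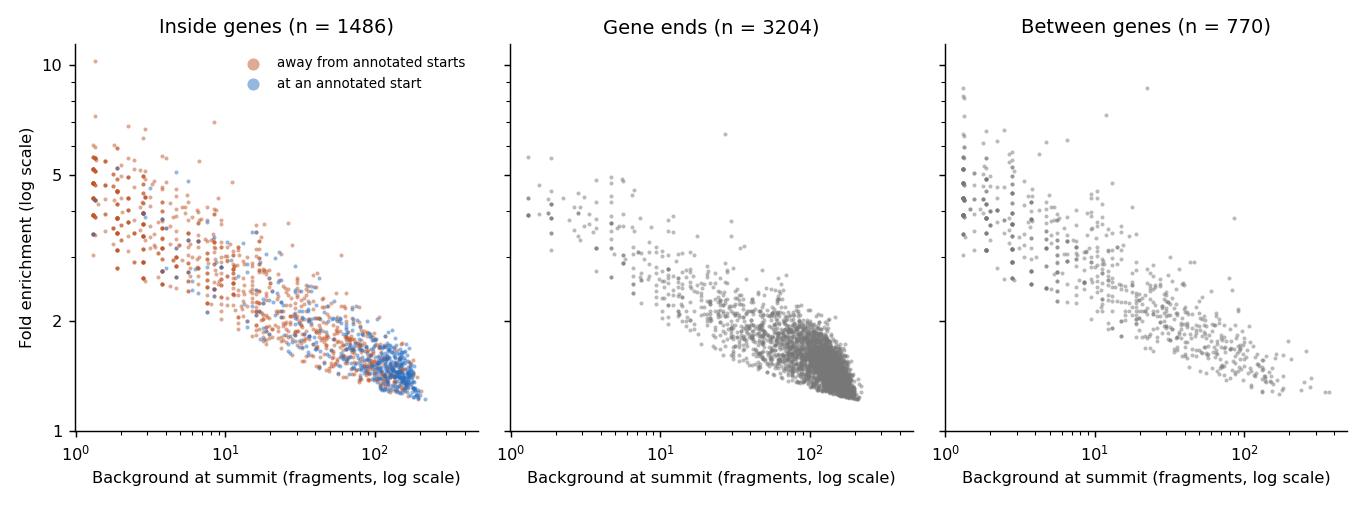
Deposited fold enrichment of each H3K4me3 peak against its recovered background in fragments, both on log axes, in a panel each for 1486 intragenic, 3204 gene-end and 770 between-gene peaks, with intragenic peaks at a listed start in blue and the others in orange. All classes lie along 1 falling band, and the intragenic peaks spread over its whole length, from Hdac4 at 10.28-fold over a background of 1.34 to peaks with a background above 100.

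Intragenic peaks reached a q-value of at most 0.01 in 1006 cases (67.7%), against 2402 gene-end peaks (74.97%), a difference of −7.27 points (−10.1 to −4.48, Fisher's exact adjusted p = 6.659e-07). This difference was −17.2 points among the upper 50% of peaks by fold and −3.96 points with a limit of 2 kb, and passed the test in both. The share between genes was 71.4% (550 peaks), and the difference of −3.73 points (−7.65 to 0.302) did not pass the test (Fisher's exact adjusted p = 0.108). Support from 20 fragments or fewer was found for 335 intragenic peaks (22.5%), against 68 gene-end peaks (2.12%). The median width was 330 bp for intragenic, 341 bp for gene-end and 308 bp for between-gene peaks.

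Intragenic peaks at a listed start had values near those of gene-end peaks. The 496 at a start had a median of 163 fragments over a background of 107.5 (1.57-fold). The 990 other members had 37.5 fragments over 15.9 (2.42-fold), and the 675 with no listed start within 5 kb had 28 over 9.35 (2.74-fold). Both sets include the 49 members on a chromosome with no start listed, whose distance to a start is unknown. The midpoint was downstream of the nearest start in 387 of 496 intragenic peaks (78.0%, 74.1 to 81.6), against 2139 of 2519 gene-end peaks (84.9%). The median offset was +260.5 bp for intragenic and +260 bp for gene-end peaks, with quartiles of 50.8 and 361 bp, against 178 and 328.5 bp. Peaks 200 to 300 bp downstream made up 26.4% of the intragenic and 38.15% of the gene-end set. The downstream position was shared by the 2 sets, with a wider spread in the intragenic set. Either set could be matched to any listed start, internal or outer. The rule also leaves out of the intragenic set every midpoint within 1 kb of a gene end, which bears on the spread.

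**Figure D2:**
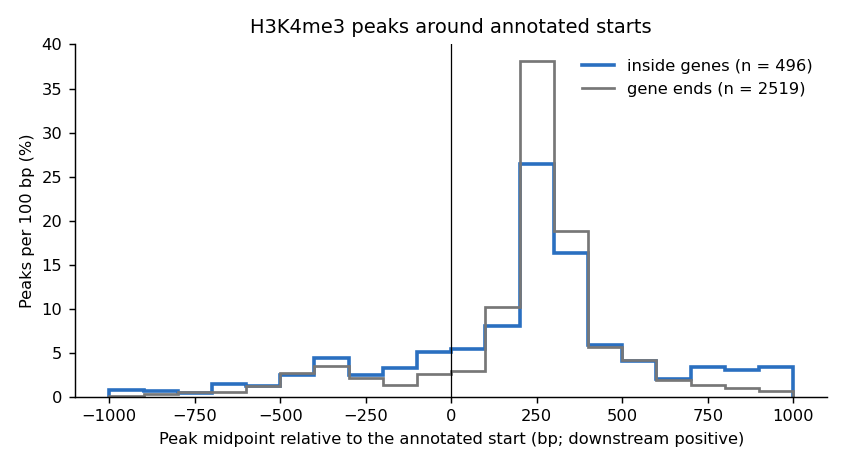
Distance in bp from the nearest listed RefSeq start to the peak midpoint, positive downstream, as a percent of the peaks within 1 kb of a start in bins of 100 bp, for intragenic and gene-end peaks. Both distributions are highest in the bin from 200 to 300 bp downstream, with 26.4% of intragenic and 38.15% of gene-end peaks.

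The sequence of internal start windows differed by whether a member lay there. Of 6671 listed starts inside protein-coding genes and over 1 kb from every end, 524 (7.85%) had an intragenic peak within 1 kb, and 6101 had no H3K4me3 peak of any class there. The median window with a member had 24 CG at 63.7% GC, against 5 CG at 51.3% GC without a peak. Windows counted as CG-rich when GC was at least 50% and the CG number at least 0.6 of that from base composition. They made up 69.1% (362 windows) with a member and 18.9% without a peak, a difference of 50.2 points (46.0 to 54.1), beside 33.5% of all listed starts. Windows near each other share sequence and members, so these intervals describe counting only.

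Short motifs were sought on both strands of the same 300-base windows. GGGCGG, the GC box bound by Sp1, was in 70.2% of windows with a member, in 24.8% of those without a peak and in 35.7% of all starts. It overlaps the definition of a CG-rich window. TATAAA was in 4.77% with a member, 13.2% without a peak and 13.6% of all starts. CACGTG was in 8.78%, 5.47% and 7.15% of these sets, and the p53 half-site in 6.87%, 8.999% and 8.36%. The difference for the p53 half-site was −2.13 points (−4.14 to 0.461), an interval that includes 0. None of these motif shares was adjusted for the GC and CG content of the windows, which differed between the sets. A match of letters is no evidence of binding.

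The 342 members at CG-rich windows had a median fold of 1.52 with 187 fragments over 121.5. The 154 at other windows had 1.82-fold with 78 over 39.4. Mxi1 is among those at CG-rich windows and Rnase6 among the others. Other members of high fold at starts, likewise chosen after their values were seen, were Gal3st3 (5.11-fold) and Rbm20 (4.84), both at the start of a long noncoding RNA inside the gene, and Gbgt1 (4.62), Wipf1 (4.28) and Hsd11b1 (3.94). Wipf1 encodes a binding partner of the actin regulator WASP, and Hsd11b1 the enzyme that regenerates active glucocorticoid.

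Distances from members to gene ends covered a wide range. The bins used here differ in width, and the share of gene sequence in each was not computed. The median distance to the nearest protein-coding gene end was 5468 bp and the longest 617617 bp. In all, 410 members (27.6%) lay 1 to 2 kb from an end, 311 (20.9%) at 2 to 5 kb, 356 (24.0%) at 5 to 20 kb, 222 (14.9%) at 20 to 50 kb and 187 (12.6%) beyond 50 kb. The nearest end could belong to the host or to another protein-coding gene. Where the strand was listed, it was a gene start for 84.7% of members at 1 to 2 kb (266 of 314, 80.3 to 88.5). That share was 74.1% at 2 to 5 kb, 63.2% at 5 to 20 kb, 52.5% at 20 to 50 kb and 48.4% beyond 50 kb (74 of 153, 40.2 to 56.6). Members close to an end were mostly near a start, and for deep members starts and far ends were nearest about equally often.

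The share at a listed start was 37.3% at 1 to 2 kb, 44.1% at 2 to 5 kb, 34.3% at 5 to 20 kb, 25.2% at 20 to 50 kb and 15.0% beyond 50 kb. Median fold over these bins was 1.66, 1.73, 2.29, 2.71 and 2.63, and median background 73.1, 64.5, 16.8, 8.90 and 10.3. Deep members thus had higher folds over lower backgrounds. A gene-end H3K4me3 peak lay within 3 kb of 107 members at 1 to 2 kb (26.1%) and of 28 at 2 to 5 kb (9.003%), in all 135 members (9.09%). By contrast 1050 members (70.7%) had no gene-end peak within 50 kb.

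**Figure D3:**
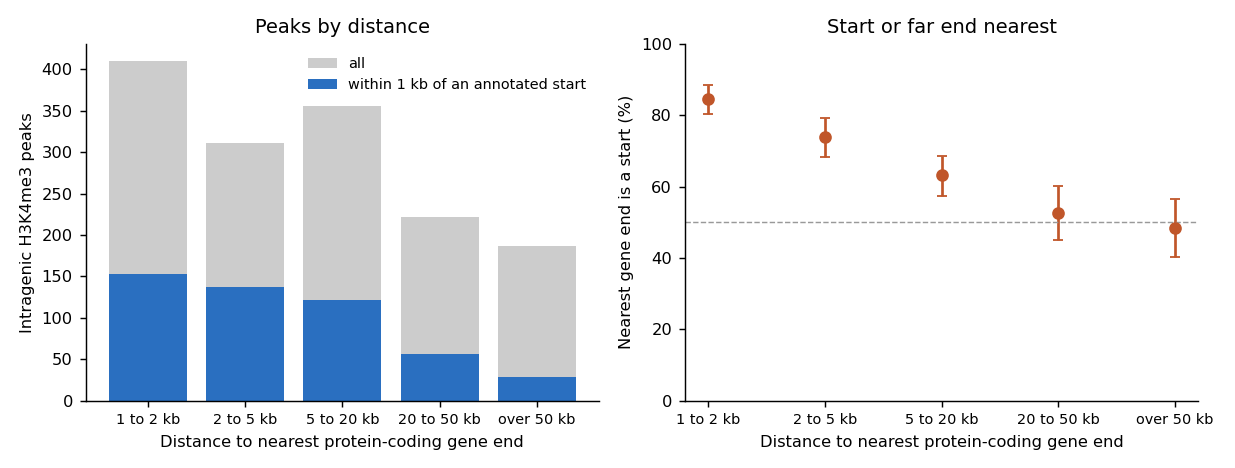
Intragenic peaks by distance to the nearest protein-coding gene end in 5 bins. Left, bars give the number of peaks, all in grey and those within 1 kb of a listed start in blue (153 of 410 at 1 to 2 kb, 28 of 187 beyond 50 kb). Right, points give the percent whose nearest end is a gene start, of the host or of another gene, with exact 95% intervals. They fall from 84.7% to 48.4% along the bins, next to a dashed line at 50%.

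The values just inside the 1 kb limit were those of Ocln, a tight junction protein (1.46-fold, 1003 bp), Tsc22d3 (1.79-fold, 1004 bp) and Igf1r, the insulin-like growth factor receptor (1.30-fold, 1004 bp). Just outside it were peaks at Gpbp1 (1.26-fold), Calca (3.70) and Fbxo32 (1.48).

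The 10 members of highest fold were led by Hdac4, a class II histone deacetylase. Its peak at chr1:92127159-92127854 had 23 fragments over a background of 1.34, a fold of 10.28 (95% Poisson interval 6.67 to 15.2), and lay 68196 bp from the gene's start and 52835 bp from the nearest listed start. A second Hdac4 peak 14452 bp away was at 4.73-fold (17 fragments). Pdlim5, a PDZ and LIM domain protein of actin filaments, followed at 7.28-fold (4.35 to 11.6, 16 fragments). Camk1d, a calmodulin-dependent kinase, was at 7.01 (5.44 to 8.91) and rested on 65 fragments over 8.41, the most of the 10. Ptch1, the Hedgehog receptor and itself a Hedgehog target, was at 6.82 (4.34 to 10.3) with 21 fragments.

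Synpo2 (6.68), Rabgef1 (6.31), Coro2a (6.07), Rapsn (6.06), Mark3 (6.00) and Pde4d (5.92) complete the 10. Synpo2 and Coro2a encode actin-binding proteins, Rabgef1 an exchange factor of Rab5, Rapsn a clustering protein of acetylcholine receptors, Mark3 a microtubule-regulating kinase and Pde4d a cAMP phosphodiesterase. None of the 10 was within 1 kb of a listed start. The intervals of all 10 overlap, so their order is within counting error.

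The members with the most fragments had low folds. Rnf44 had 288 fragments over 170.2 (1.69-fold), Csnk1a1, a kinase of the Wnt and clock pathways, 282 (1.56-fold), Nrbp1 280 (1.73-fold), Cops3, a subunit of the COP9 signalosome, 276 (1.503-fold) and Rpl17, a ribosomal protein, 269 (1.401-fold). The Rnf44, Nrbp1 and Cops3 peaks were 351.5, 203 and 197 bp from a listed start of their own gene. For Csnk1a1 and Rpl17 no start was listed.

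Among the widest members were those of 2733 bp at Tsc22d3, the glucocorticoid-induced leucine zipper Gilz, 2097 bp at Mcam, 2070 bp where Timp2 and Cep295nl overlap, and 1523 bp at Zbtb16, a zinc finger repressor. The Zbtb16 peak had 181 fragments over 58.9 (3.04-fold) and the largest −log10 q of any member (30.7). It lay 1508 bp from a gene end and 2075 bp from a gene-end peak.

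Of 19304 protein-coding genes longer than 2 kb, 1264 held a member, which is 6.55% of them. A single member was held by 1068 genes, 2 by 156, 3 by 33, 4 by 4 and 5 by 3 genes. Longer genes held a member more often: 2.66% of genes of 2 to 10 kb, 4.94% at 10 to 50 kb, 12.2% at 50 to 200 kb and 19.5% above 200 kb held one. In all, 258 of the 1264 also had a gene-end peak inside the gene or within 1 kb of it. That peak could be at an end of the gene or of another protein-coding gene. The median length was 57.1 kb for genes with a member and 21.3 kb for all.

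Hoxb3, Mxi1 and Pde4d held 5 members each, and their layouts differed. In Hoxb3, a homeobox gene of 40.8 kb, the folds were 1.58, 2.49, 3.25, 1.503 and 1.75 along the chromosome, and none was at a listed start. The first lay 3408 bp from the start of Hoxb4 inside the Hoxb3 bounds. In Mxi1 (63.2 kb) a run of 3 peaks at 1.43-, 1.47- and 1.53-fold lay 1623 to 3402 bp from the start, the fourth was the one at the CG-rich internal start shown above, and the fifth was at 2.78-fold. In Pde4d (1302 kb) the 5 peaks lay 53004 to 558796 bp from the nearest end at 5.92-, 2.02-, 5.195-, 1.88- and 1.55-fold, and the second was 78 bp from the start of the long noncoding RNA Gm32703. Ptpn14, a tyrosine phosphatase, held 4 members 57.2 to 59.7 kb from its start, at 4.03-, 3.17-, 3.02- and 2.12-fold. Plcb4, a phospholipase C, held 4, of which the 1 of lowest fold (1.52) was at a listed start.

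**Figure D4:**
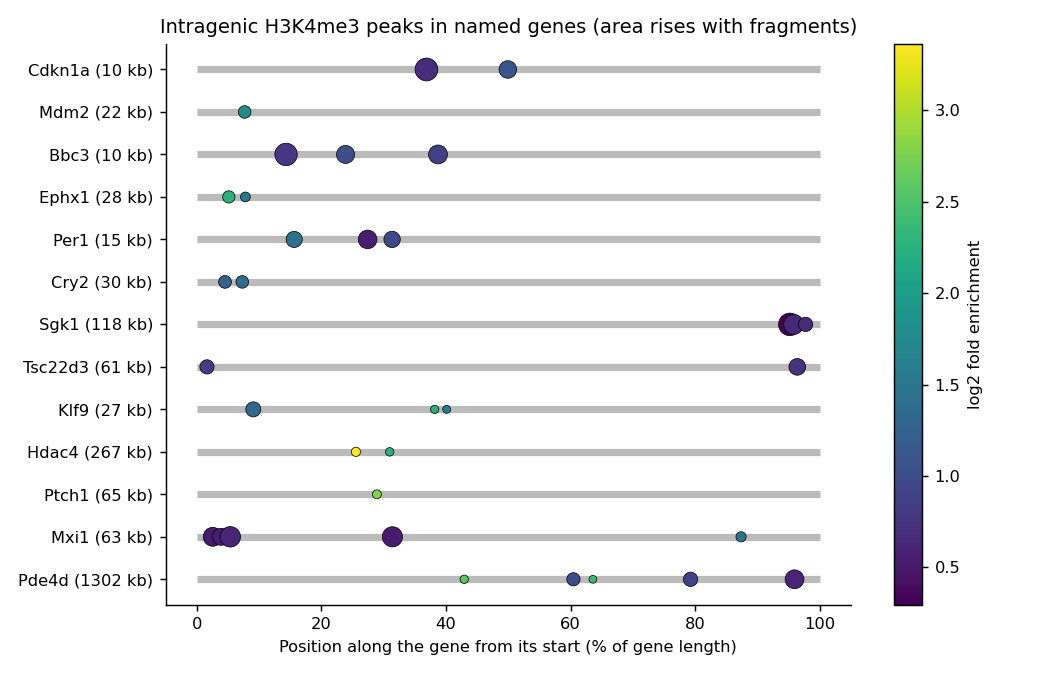
Intragenic H3K4me3 peaks along named genes, each scaled to its own length from its start (0) to its far end (100%), with the point's area growing with fragments and its colour giving log2 fold enrichment. Hdac4 has its small, bright 10.28-fold point (23 fragments) well inside the gene, while Mxi1 has 3 large, dark points close to its start and 1 at an internal start.

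The p53 targets among 21 lists of genes were examined because the study irradiated the skin. A member was held by 10 of the 38 p53 targets over 2 kb (26.3%, 13.4 to 43.1, median length 17.3 kb), beside 6.55% of all such genes and 4.94% of genes of 10 to 50 kb. The highest was Ephx1, an epoxide hydrolase, with 57 fragments over 11.1 (4.78-fold). Mdm2, a ubiquitin ligase acting on p53, had 61 over 17.2 (3.40-fold, 2.61 to 4.35) at chr10:117708914-117709235, 1684 bp from its start. Mdm2 is known to have a p53-responsive promoter in its first intron, but the table gives no exons. The death receptor Fas was at 2.82-fold (20 fragments over 6.45) and the antiproliferative gene Btg2 at 2.44 (86 over 34.6).

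Cdkn1a, which encodes the cyclin-dependent kinase inhibitor p21, held 2 members, at chr17:29093847-29095296 and chr17:29095696-29095991. The first was 1450 bp wide with 245 fragments over 152.4 (1.60-fold) and lay 802 bp from an internal start. The second had 137 fragments over 62.6 (2.17-fold). Bbc3, which encodes the apoptosis activator Puma, held 3. The highest, 2.03-fold with 145 fragments over 71.1, covered 158 bases of the start window printed above. Its E-box lies 64 bases before the start. Gdf15 (2.34-fold), Trp53inp1 (2.25), Sesn1 (1.64) and Rps27l (1.36) complete the 10. Ccng1, Bax and Trp53 held none and had 1 gene-end peak each. A member with a q-value of at most 0.01 was held by 8 p53 targets, beside 4.58% of all genes. Many of these peaks lay close to a gene end. With a limit of 2 kb 4 targets held one (Bbc3, Cdkn1a, Ephx1 and Sesn1), beside 4.73% of all genes. With 5 kb 1 did, beside 644 of the 19304 genes over 2 kb.

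Clock genes and glucocorticoid-induced genes also held members. Of 21 clock and clock output genes 7 did (33.3%, 14.6 to 57.0, median 33.6 kb), beside 6.55% of all genes and 4.94% of genes of 10 to 50 kb, and all 7 had one at a q-value of at most 0.01, beside 4.58% of all genes at that limit. Rora, a nuclear receptor that activates Bmal1, was at 2.75-fold with 48 fragments over 16.8. Per1, a repressor of the clock loop, held 3 members at 2.71-, 1.47- and 1.97-fold. The 1.47-fold peak lay 234 bp downstream of the start whose window is printed above. It covered only 25 bases of that window, and the E-box, 166 bases before the start, lay outside it. Cry2, the partner of the Per proteins, held 2 with the higher at 2.59-fold (61 over 22.9). Dbp, a clock output factor, was at 2.05-fold with 218 fragments over 105.6. Tef, Bhlhe41 and Nfil3 had 1.96, 1.81 and 1.48.

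Of 17 glucocorticoid response genes 9 held a member (52.9%, 27.8 to 77.0, median 15.1 kb), beside the same 6.55% and 4.94%, and all 9 did at a q-value of at most 0.01 as well. Klf9, a Krüppel-like factor, was at 4.64-fold on 15 fragments over 2.45. Zbtb16 was at 3.04-fold, Angptl4, an inhibitor of lipoprotein lipase, at 2.74 (53 over 18.7) and Per1, which is in both lists, at 2.71. Glul, glutamine synthetase, was at 2.42, Tsc22d3 at 1.79, the phosphatase Dusp1 at 1.697, the kinase Sgk1 at 1.59 and Nr3c1, the glucocorticoid receptor, at 1.48. Genes of these lists were chosen with earlier results of these data known, so the shares are a description. At 2 kb from every end the counts were 5 for the clock and 6 for the glucocorticoid list, beside 4.73% of all genes. At 5 kb they were 2 and 3, beside 644 of the 19304 genes over 2 kb.

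Hair follicle regulators held a member in 12 of 28 genes (42.9%, 24.5 to 62.8, median 30.7 kb), beside 6.55% of all genes and 4.94% of genes of 10 to 50 kb. Tcf4, a basic helix-loop-helix factor, was at 4.53-fold on 12 fragments over 1.87, and Runx1, which promotes activation of hair follicle stem cells, at 4.09 on 34 over 7.57. The homeobox gene Cux1 was at 3.72, the Wnt effector Tcf7l2 at 3.59 and Krt15, a keratin of bulge stem cells, at 2.69 with 62 over 22.4. Among Wnt, Hedgehog, Bmp and Notch genes 10 of 43 held one (23.3%, 11.8 to 38.6, median 37.5 kb), beside the same shares, led by Ptch1, the Notch effector Rbpj (3.17) and the ligand Wnt3 (2.92). With q limited to 0.01 the counts of these lists were 10 and 5, beside 4.58% of all genes, and at 2 kb from every end 7 and 6, beside 4.73%.

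Epidermal genes held a member in 7 of 35 (20%, 8.44 to 36.9, median 17.6 kb), beside 6.55% of all genes and 4.94% of genes of 10 to 50 kb, and 5 of them did at a q-value of at most 0.01 (4.58% of all genes). Krt1, a keratin of suprabasal cells, was at 3.59-fold on 16 fragments over 3.74, the differentiation factors Grhl3 and Grhl1 at 2.88 and 2.37, and the cornified envelope protein Ppl at 1.72. Krt5 and Krt14, keratins of basal cells, and the stress keratin Krt17 held none: the nearest H3K4me3 peak of any class was 133.1 kb from Krt5, 67.7 kb from Krt14 and 59.1 kb from Krt17. For Actb and Gapdh it was 8.10 and 49.4 kb away. The list thus lacked peaks at genes that are strongly active in skin, and a gene without a member is not shown to lack the mark.

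Markers of other cell types and organs gave counts too small to set apart from the 6.55% of all genes. Endothelial genes had 1 of 14 (Eng, 2.51-fold), and none was held by 20 fibroblast genes, 18 immune, 11 melanocyte, 13 adipocyte, 15 muscle or 21 genes of other organs. The exact upper limits for these 0 counts were 16.8%, 18.5%, 28.5%, 24.7%, 21.8% and 16.1%, all above the 6.55% of all genes. Cell cycle genes and DNA damage genes (3 of 31 each, 9.68%), the H3K4 methylation machinery (2 of 21) and interferon genes (2 of 24) were also near that share. The leading members were Cdkn2a (3.46, 7 fragments) for the cell cycle, Rad51b (3.94) and Wwox (3.49) for DNA damage, Kmt2d (1.61) for the H3K4 machinery, and Ifit1 (3.94, 14 fragments) and Ifit3 (3.14, 8 fragments) for interferon. The Cdkn2a peak was 4 bp from an internal start.

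Cell adhesion and cytoskeleton genes held one in 6 of 30 (20%) at a median length of 95.95 kb, next to 12.2% of genes of 50 to 200 kb, and in 5 at a q-value of at most 0.01, with Pdlim5 and Tns3 (5.58) highest. Histone deacetylase genes held one in 3 of 18, Hdac4 and Hdac7 (1.75) among them. Beside 6.55% of all genes, immediate early genes did in 3 of 17, namely Maff (1.67), Egr1 (1.58) and Klf4 (1.29), and EGF receptor genes in 1 of 20 (Spry2, 1.33). At a q-value of at most 0.01 these counts were 3 for histone deacetylases, 1 for immediate early and 0 for EGF receptor genes, beside 4.58% of all genes.

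**Figure D5:**
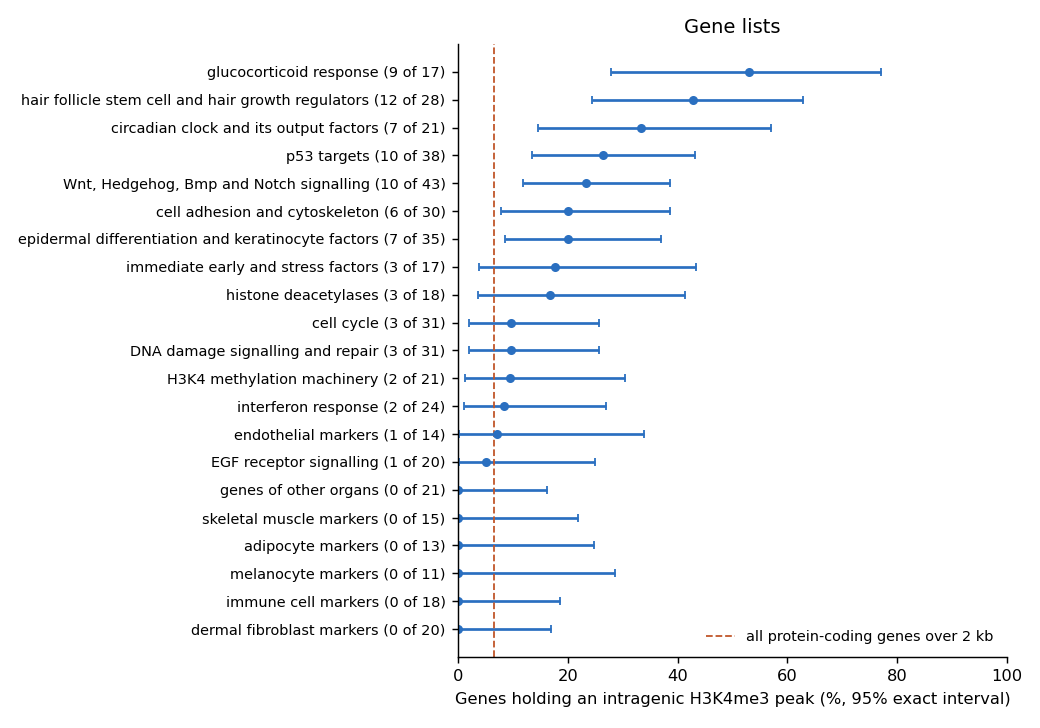
Percent of the genes over 2 kb in each of 21 lists that held an intragenic H3K4me3 peak, with exact 95% binomial intervals, and a line at the 6.55% of all such genes. Glucocorticoid response genes are highest at 52.9%, and 6 marker lists of other cells and organs are at 0, with intervals that reach above the line.

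Overlap with p53 was rare. By at least 1 bp, 20 intragenic peaks (1.35%) met a p53 peak of either list. The WT list holds 2909 peaks (median 7 fragments) and the K17KO list 1101 (median 11), so their shares cannot be compared between genotypes. The K17KO list met 12 of the 1486 (0.808%), against 50 gene-end peaks (1.56%), a difference of −0.753 points (−1.353 to −0.0467) that did not pass the adjusted test (Fisher's exact adjusted p = 0.0646). With the limit at 2 kb, which also moved the peaks at 1 to 2 kb into the gene-end set, it was −1.34 points and passed (Fisher's exact adjusted p = 4.774e-04). Against 6 between-gene peaks (0.779%) the difference was 0.0283 points (Fisher's exact adjusted p = 1). The WT list met 9 members (0.606%), against 14 gene-end peaks (0.437%, difference 0.169, −0.243 to 0.738, Fisher's exact adjusted p = 0.626) and 5 between-gene peaks (0.649%, adjusted p = 1). Apart from the K17KO difference from gene ends, the sign of these small differences changed with the settings. Overlap was found for 9 of 496 members at a listed start (1.81%) and for 11 of the 990 others (1.11%). The 990 include the 49 members on a chromosome with no start listed.

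Rps27l, a p53-induced ribosomal protein homologue, held the 1 member met by both p53 lists. Its H3K4me3 peak at chr9:66946168-66946743 had 220 fragments over 161.7 (1.36-fold). The K17KO p53 peak was at 6.53-fold (18 fragments over 1.91) and the WT p53 peak at 4.51-fold (18 over 3.21). The p53 half-sites in the window printed above lie 210 and 107 bases before the internal start, inside both p53 peaks, and 295 of the 300 bases lie inside the H3K4me3 peak.

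The other K17KO p53 peaks at members were at 6.69-fold in Ak4, an adenylate kinase, 6.65 in Nrip1, a corepressor of nuclear receptors, 5.76 in Tshz1, 5.68 in Pds5a, a cohesin regulator, and 5.66 in Atxn3, a deubiquitinase. Sulf2, Tbce, Rimbp3, Clstn1, Tnrc18 and Nudcd3 had 3.75 to 5.19. The other WT p53 peaks were at 4.81-fold in Msi1, an RNA-binding protein of stem cells, 4.02 in Pnpla3 and in Zfp809, 3.62 in Ephx1, 3.42 in Tanc1, 3.38 in Rpl22, 2.86 in Nup210 and 2.03 in Tmem267. Those in Nup210 and Rpl22 were weak, with −log10 q of 0.376 (8 fragments) and 0.656 (6 fragments). The one in Tmem267 lay over a background of 66.5, where the median of the WT list was 0.992. The p53 peaks in Rpl22, Nup210, Rimbp3, Nrip1 and Sulf2 met the H3K4me3 peak only at its edge. Tanc1 had the highest H3K4me3 fold of the 20 (5.57), and Nrip1 the lowest (1.25).

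Ends of genes that are not protein-coding lay within 1 kb of 159 members (10.7%), against 428 gene-end peaks (13.4%, difference −2.66, −4.57 to −0.636, Fisher's exact adjusted p = 0.0208) and 196 between-gene peaks (25.5%, difference −14.75, −18.3 to −11.4, adjusted p = 2.718e-18). With the limit at 5 kb, which also widened the gene-end set, the first difference was −2.06 points and did not pass (Fisher's exact adjusted p = 0.187). Of the 159, 134 were at long noncoding RNAs, 14 at miRNAs, 6 at pseudogenes and 3 at snoRNAs. The highest folds were at Gm42064 in Gal3st3 (5.11), Gm2666 in Gm7592 (5.04), Gm16299 in Rbm20 (4.84), Gm52677 in Cfap57 (4.34) and Gm17977 in Pcdh7 (4.33).

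The miRNA gene Mir199a-2 lies inside Dnm3, a dynamin, in the noncoding transcript Dnm3os. The member there, at chr1:162217702-162217976, had 51 fragments over 23.4 (2.13-fold) and was 215.5 bp from the Dnm3os start. Its 2 mature miRNAs, from RefSeq's GRCm38.p6 table, are shown because this peak covers them, 5′ to 3′ with the seed (bases 2 to 8) in capitals.
mmu-miR-199a-5p: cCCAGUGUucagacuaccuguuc
mmu-miR-199a-3p: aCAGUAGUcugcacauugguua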

How the data were processed

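Peak lists of chromatin immunoprecipitation in mouse back skin were analysed. Bowtie2 2.2.5, SAMtools 1.7, MACS2 2.1.2 and mm10 are named, per the submitters' processing notes, with no role or order. The 3 deposited lists hold 10 columns and no header. For the libraries, control and threshold behind each list, the sources used here give nothing. The deposited fold is a ratio of pileup to background. The authors also deposited −log10 p and −log10 q from the caller, which are the peak's own values and serve only to describe or filter peaks in a list, and the deposited score is 10 times the −log10 p without decimals. Summit offsets, another column the authors deposited, entered as an alternative to the midpoint. The lists hold no column of a sample, so 0 columns of other samples were left out.

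Fragments and background were recovered from the fold and p (upper Poisson tail, tolerance 0.001 in −log10 p) for 100% of peaks. The solution was the single one in 100% of H3K4me3 and K17KO p53 peaks and in 92.3% of WT p53 peaks, among them the 9 at members. Total depth is unknown. The smallest −log10 q in the H3K4me3 list was 0.229. Intervals on a fold treat the background as known, and all intervals cover counting error only, at 95%.

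Gene bounds and 32851 start windows (250 bases before to 50 after a start) came from RefSeq, GRCm38.p6. The table has 21887 protein-coding genes. Exons and introns were not separated, and peak sequences were not read. Two-sided tests of shares used Fisher's exact method (Benjamini-Hochberg over 10 tests, threshold 0.05) and Newcombe intervals, and were tested on simulated data. Tools were Python 3.11.15, scipy 1.17.1 and statsmodels 0.14.6. Of 507 entries in 21 gene lists, 505 matched a gene.

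Genes were named by rule: the 10 members of highest fold, the 5 with most fragments, the 5 widest, the 5 genes with most members, all members at a p53 peak, up to 4 genes per list, 5 at noncoding gene ends, 3 peaks on each side of the 1 kb limit, and Cdkn1a, Mdm2, Ccng1, Bax, Trp53, Krt17, Krt5, Krt14, Actb, Gapdh, Hdac4 and Ptch1. Further genes of a list, the remaining genes of highest fold at starts, the printed windows and miRNAs, the grouping of folds by background and the list counts at other limits were chosen after values were seen. The members and lists were chosen with earlier results of these data known. Some members that the rule names are not reported here.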

Additional observations from a re-analysis of the deposited data

How the results depend on the processing

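Across 17 results and 11 alternative settings, 127 values were recomputed. A limit of 2 kb or 5 kb redrew the gene-end and between-gene sets too. For 89 the direction and the side of the threshold (for counts and values without a test, the value within 1.5 times or within its interval) were kept, 21 moved, 4 came to pass the threshold, 2 ceased to and 11 changed sign. All 11 were p53 differences that passed the test neither as reported nor under the setting. The WT difference from gene-end peaks was −0.269 points at 2 kb, −0.102 at 5 kb and −0.0817 clear of all gene ends. The WT difference from between-gene peaks was 0.0325 at a q-value of at most 0.1, 0.309 in the upper 50% by fold and 0.0815 with 50% overlap. The K17KO difference from between-gene peaks was −0.0279 and −0.196 at q-values of at most 0.1 and 0.01, −0.443 in the upper 50% by fold, −0.540 at 2 kb and −0.509 at 5 kb. With a q-value of at most 0.01 the members were 25.4% of the list and their median fold 2.04, and the difference from gene-end peaks in noncoding ends was −2.41 points (Fisher's exact adjusted p = 0.111). In the upper 50% by fold there were 987 members (36.1%) with a median fold of 2.57, of which 19.96% were at a start. A gene start was the nearest end for 58.7%, and the K17KO p53 difference from gene-end peaks was −1.09 points (Fisher's exact adjusted p = 0.0137). With a limit of 2 kb the members were 19.7%, their median fold 2.17, and the nearest end was a gene start for 61.8%. Of the listed genes 48 in place of 77 held one, and the K17KO difference was −1.34 points (Fisher's exact adjusted p = 4.774e-04). With 5 kb there were 765 members (14%) in 644 genes and 31 listed genes, with a median fold of 2.50 and 26.9% at a start. The nearest end was a gene start for 56.55%. The K17KO difference was −1.25 points (Fisher's exact adjusted p = 0.00536) and the noncoding difference −2.06 (Fisher's exact adjusted p = 0.187). Keeping clear of the ends of all genes left 24.3% of the list, 29.5% of them at a start. Overlap of at least 50% gave a K17KO difference of −0.71 points (Fisher's exact adjusted p = 0.0466). A start within 500 bp, chosen after seeing the data, gave 26.65%. The K17KO p53 difference therefore passes the threshold under 4 settings and not as reported, and the cause was not tested. No paired analysis was possible because the lists name no sample. With 22.5% of members on 20 fragments or fewer, counting error is wide for single peaks.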
